A study of Mus musculus with 8 samples.

Results

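The genes described here form the IL-7 receptor, JAK and STAT5 axis of mouse pro-B cells. They were 10 genes picked by symbol for their known place in the pathway, out of 23929 gene symbols measured: the receptor chains Il7r and Il2rg, the kinases Jak1, Jak2 and Jak3, the transcription factors Stat5a and Stat5b, and the target genes Cish, Socs2 and Pim1. All 10 were detected in every library, and all 10 were among the 10479 genes tested. RNA was sequenced from 4 untreated pro-B lines derived from 129SV bone marrow, with 2 libraries from each line. The WT line is labelled wild type. CBE line 1 and CBE line 2 both carry the genotype label IGCR1-/-, a deletion in a control region of the immunoglobulin heavy chain (IgH) locus that holds CTCF-binding elements. The Eµ-deleted line is labelled E<mu>-/- and lacks the intronic enhancer of IgH. All lines grew in RPMI medium with 10% fetal bovine serum and 2-mercaptoethanol, and the labels name no added cytokine. The sources used here do not say how the lines were made. The WT and Eµ-deleted genotypes are each 1 line, so genotype and line cannot be told apart, and the deleted elements are regulatory DNA, which gene-level RNA values do not check. Whether the libraries of a line are separate cultures is not stated in the labels. The p-values therefore reflect library-to-library spread, which may be technical.

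IL-7 is the cytokine on which mouse pro-B cells depend for survival and growth. It joins Il7r, the IL-7 receptor alpha chain, to Il2rg, the common gamma chain, and the attached kinases JAK1 and JAK3 then phosphorylate STAT5A and STAT5B, which enter the nucleus and switch on target genes. Among those targets, Cish and Socs2 encode feedback inhibitors of cytokine signalling, and Pim1 encodes a serine/threonine kinase that promotes survival and growth.

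STAT5 dimers bind the palindrome TTCNNNGAA, which reads the same on both strands. It was searched in RefSeq promoter windows of GRCm38.p6, another build than the mm9 of the expression files, which run from 250 bases before to 50 after each gene's start. Of 32851 such windows of 300 bases, 8.3% held the motif at least once and 0.457% (150 windows) held it 2 or more times. The genes other than Socs2 had 12 windows in all, and 10 of these held no match. The 2 windows with a match belonged to Cish and Il7r, and stretches of them are shown because they place the motif in a target gene and in the receptor gene. Capitals mark TTCNNNGAA, and both stretches read 5′ to 3′ on the gene's strand. The Cish stretch is chr9:107296599-107296678 on the plus strand and ends 20 bases past the start of the transcript. The Il7r stretch is chr15:9529975-9530054 on the minus strand.
Cish: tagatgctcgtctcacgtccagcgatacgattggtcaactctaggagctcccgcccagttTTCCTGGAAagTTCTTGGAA
Il7r: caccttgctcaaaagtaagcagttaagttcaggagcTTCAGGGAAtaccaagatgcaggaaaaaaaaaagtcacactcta
The Cish window held TTCCTGGAA and TTCTTGGAA with 2 bases between them. The single Il7r match, TTCAGGGAA, began at base -142 from the start. A match describes these letters and does not show that STAT5 binds there, and a window with none says only that the letters are not in that window.

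Expression is given as FPKM (fragments scaled to transcript length and to library size), so levels can be set beside each other between genes. The reads implied by the intervals in the files summed to between 31.3 M in CBE line 1 replicate 2 and 49.5 M in WT replicate 1. For the 10 genes, the half-width of the interval was 1.21% to 6.10% of the value. Read as counting error alone, that would imply 1075 to 27256 reads per value. For Jak1, however, the implied reads stayed between 1987 and 2154 while FPKM ran from 44.3 to 67.6. For such genes the interval is thus not set by counts alone, and implied reads are not read numbers. Across genes, r was 0.978 to 0.992 within a line and 0.926 to 0.964 between lines. All 12 B lineage markers examined, among them Pax5 and Ebf1, reached 1 FPKM in both libraries of every line, and their sum ranged from 2900 to 4190 FPKM. Of these 12, 1 rose and 0 fell in the CBE lines, beside 12.5% and 9.78% of all genes tested. In the Eµ-deleted line 3 rose and 2 fell, beside 11.3% and 10.4%. Of 9 T lineage markers, 3 were tested (Lat, Cd28 and Cd5), since a gene was tested where 2 or more libraries reached 1 FPKM. Lat fell in each mutant line. Cd28 and Cd5 reached that level in the WT libraries only, so their lower values in the mutants came with the filter and support nothing. The T list summed to 253 to 281 FPKM in WT and 106 to 174 in the mutant libraries, mostly Lat, and the defining T cell genes Cd3e, Cd4 and Cd8a were listed at 0 in all 8 libraries. The part of these markers in the differences below was not tested. Summed myeloid markers ranged from 1.64 to 8.89 FPKM and summed NK markers from 0.753 to 3.34. Of the 2 myeloid markers tested, Lyz2 fell in CBE line 2 alone (by 1.80 in log2(FPKM + 1), limma adjusted p = 0.0336, lost in 4 of 8 leave-outs). Itgam was higher in the CBE lines by 1.01 on that scale. Of the 2 NK markers tested, Klrb1c was at 1.76 and 2.39 FPKM in WT and at 1.09 or less in the mutants. Klrd1 was at 2.22 and 2.19 FPKM in CBE line 2 and at 0.793 or less in every other library. Itgam reached 1 FPKM in CBE libraries only, and Klrd1 in CBE line 2 only. Klrb1c reached it in both WT libraries and in CBE line 2 replicate 1 only. The differences of Itgam, Klrd1 and Klrb1c thus came with the filter and support nothing. The part of these genes too was not tested. In bulk RNA, a change in the share of cells that use a gene and a change in RNA per cell cannot be told apart.

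**Figure D1:**
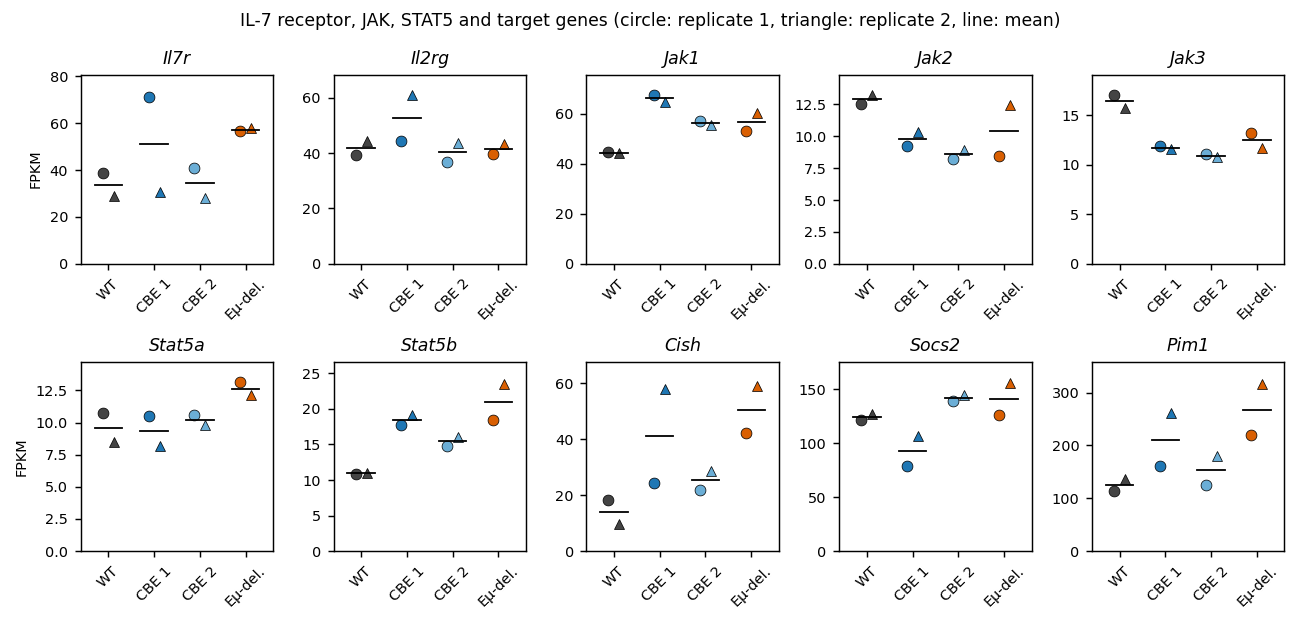
FPKM of the 10 genes in every library, with one panel per gene, a circle for replicate 1, a triangle for replicate 2 and a line at the mean of the 2 libraries. Stat5b, Jak1 and Cish lay higher and Jak2 and Jak3 lay lower in all 6 mutant libraries than in both WT libraries. Over all genes tested, 32.1% did not overlap in this way (18.2% higher and 14% lower). Il7r and Cish differed between the libraries of one line.

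Differences between lines were tested on log2(FPKM + 1) with limma, as moderated contrasts over all 8 libraries, and a gene was called when its Benjamini-Hochberg adjusted p over all genes tested was under 0.05. The words rose and fell are used for called genes only. Log2 differences are on this scale, each with its standard error (SE), and all comparisons with WT share the same 2 WT libraries. The fit held line only, so any pairing of same-numbered libraries was left out except where the replicate number is named as a block. When both CBE lines were averaged and compared with WT, 3 of the 10 genes were called: Jak1 and Stat5b rose and Jak3 fell. Over all genes tested, 22.3% were called in this comparison (12.5% higher and 9.78% lower). Among the 10, 5 were called in the Eµ-deleted line, with Stat5b, Jak1, Cish and Pim1 higher and Jak3 lower, against 21.8% of all genes (11.3% higher and 10.4% lower). TPM scaling moved that split of all called genes to 1426 higher and 865 lower, and the CBE split from 1314 higher and 1025 lower to 1494 and 828, while quantile normalization gave 1142 and 1302 in the CBE comparison and 1143 and 1279 in the Eµ comparison. These shares of all genes also moved with the libraries used: without WT replicate 2 they were 8.69% and 7.55%, and without WT replicate 1, 1046 and 885 genes were called. The median log2 difference of the 10 genes was 0.19 in the CBE comparison and 0.35 in the Eµ comparison, beside 0.03 and 0.01 over all genes.

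Il7r (chr15:9435913-9459631 in mm9, as the files give it) was measured at 38.6 and 28.8 FPKM for WT, 71.2 and 30.6 for CBE line 1, 41.0 and 27.9 for CBE line 2, and 56.5 and 58.0 with the Eµ deletion. The Eµ-deleted line was the only one with near-equal libraries, and both lay above each WT and CBE line 2 library, while CBE line 1 held both the highest value and one of the lowest. Mean FPKM came to 33.7 ± 6.90 for WT, 50.9 ± 28.8 for CBE line 1, 34.4 ± 9.30 for CBE line 2 and 57.3 ± 1.08 for the Eµ-deleted line (SD, n = 2). The difference from WT was not called in either comparison, at 0.25 (limma adjusted p = 0.655, SE 0.33, 95% interval -0.55 to 1.04) in the CBE lines and 0.76 (adjusted p = 0.206, SE 0.38, interval -0.16 to 1.68) in the Eµ-deleted line. CBE line 1 alone differed from WT by 0.47 (adjusted p = 0.448). Leaving out CBE line 1 replicate 2 moved that difference to 1.07 with an adjusted p of 0.0490, and leaving out replicate 1 moved it to -0.12.

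Il2rg, which also serves the receptors for IL-2, IL-4, IL-9, IL-15 and IL-21, varied less. It was measured at 39.4 and 44.5 FPKM for WT, 44.5 and 61.0 for CBE line 1, 36.9 and 43.8 for CBE line 2, and 39.7 and 43.4 with the Eµ deletion (chrX:98459725-98463545). The ranges of the other lines all overlapped that of WT, and CBE line 1 replicate 2 was the single high value. The log2 difference from WT was 0.13 (SE 0.15, interval -0.22 to 0.48) in the CBE lines and -0.01 (SE 0.17, interval -0.42 to 0.39) in the Eµ-deleted line, with limma adjusted p-values of 0.595 and 0.975. The ratio of Il7r to Il2rg FPKM was 0.980 and 0.648 for WT, 1.60 and 0.501 for CBE line 1, 1.11 and 0.635 for CBE line 2, and 1.42 and 1.34 with the Eµ deletion. In the WT line and both CBE lines, replicate 1 had the higher ratio, and in the Eµ-deleted line the libraries were close.

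Jak1, the kinase attached to the IL-7 receptor alpha chain, rose in the mean of the CBE lines, in the first of them alone and with the Eµ deletion. Its FPKM was 44.5 and 44.3 for WT, 67.6 and 64.8 for CBE line 1, 57.2 and 55.2 for CBE line 2, and 52.8 and 60.0 with the Eµ deletion (chr4:100824578-100937887). Every mutant library lay above both WT libraries, and CBE line 1 stood above the other lines. The log2 difference from WT was 0.45 (limma adjusted p = 0.00891, SE 0.08) in the CBE lines, a 1.37-fold difference, and 0.34 (adjusted p = 0.0464, SE 0.09) in the Eµ-deleted line. CBE line 1 alone gave 0.56 (adjusted p = 0.00719), and CBE line 2 alone gave 0.33 and was not called (adjusted p = 0.0525). It was called there under 5 of the 10 other settings, which were a pseudocount of 0.1, no filter, TPM scaling, only the libraries compared and the replicate number as a block (adjusted p down to 0.0162, and 0.0328 with the block). Neither of the 2 CBE calls remained without WT replicate 1 or without WT replicate 2, where adjusted p reached 0.0991 for both lines and 0.0729 for line 1. Without either Eµ-deleted library the CBE line 2 difference was called (adjusted p as low as 0.0220). The Eµ call was lost in 7 of the 8 fits that left out a library, all but that without Eµ-deleted replicate 1, with an adjusted p of up to 0.215.

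Jak3, the kinase attached to the common gamma chain and used mainly in lymphoid and other blood cells, went the other way. Its FPKM was 17.1 and 15.8 for WT, 11.9 and 11.6 for CBE line 1, 11.1 and 10.8 for CBE line 2, and 13.2 and 11.7 with the Eµ deletion (chr8:74200281-74214476). Both WT libraries lay above all 6 mutant libraries. It fell by 0.50 (limma adjusted p = 0.00653, SE 0.08) in the CBE lines and by 0.37 (adjusted p = 0.0377, SE 0.10) in the Eµ-deleted line. The lines taken singly gave -0.45 in CBE line 1 (adjusted p = 0.0202) and -0.55 in CBE line 2 (adjusted p = 0.00914). No Jak3 call remained without WT replicate 1 or without WT replicate 2, where adjusted p reached 0.0887 for both CBE lines together. The Eµ call was also lost without either CBE line 2 library and without Eµ-deleted replicate 2 (adjusted p up to 0.235 over all these fits). The call in line 1 was lost without any 1 of the 4 CBE libraries (up to 0.152 over all fits), and that in line 2 without either library of that line (up to 0.0921).

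Jak2, which serves receptors such as those for erythropoietin, growth hormone and TSLP, was measured at 12.6 and 13.2 FPKM for WT, 9.20 and 10.3 for CBE line 1, 8.25 and 8.90 for CBE line 2, and 8.41 and 12.5 with the Eµ deletion (chr19:29326292-29387570). The mutant libraries all lay below WT, although Eµ-deleted replicate 2 came close to it. The differences were -0.46 (limma adjusted p = 0.0741, SE 0.15) in the CBE lines and -0.30 (adjusted p = 0.254, SE 0.17) in the Eµ-deleted line, and neither was called. With the replicate number as a block, Jak2 was called in the CBE lines together (adjusted p = 0.0232) and in CBE line 2 (0.0238). Median-of-ratios scaling, quantile normalization and a fit on only the libraries compared also gave both calls (adjusted p down to 0.0116 and 0.00839). Without either Eµ-deleted library it was called in the CBE comparison (adjusted p as low as 0.0110) and in each CBE line singly (as low as 0.0371 in line 1 and 0.0115 in line 2). Without Eµ-deleted replicate 2 the Eµ-deleted line also passed, at -0.56 with an adjusted p of 0.0290. Tyk2, the remaining JAK family gene, differed from WT by 0.03 in the CBE lines and -0.01 in the Eµ-deleted line (adjusted p = 0.864 and 0.970).

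The make-up of the JAK family shifted with these differences. Jak1 held 53.7% and 54.3% of the summed FPKM of the 4 JAK genes in the WT libraries and 64.2% to 69.7% in the mutant libraries. Jak3 held 20.6% and 19.3% in WT and 12.1% to 16.0% in the mutants, and Jak2 held 15.2% and 16.2% in WT and 9.49% to 13.4% in the mutants. The share of Tyk2 ranged from 8.55% to 10.5% over all 8 libraries. For Jak1, Jak2 and Jak3 the WT and mutant shares did not overlap, and they sum to a fixed total, so they do not vary independently.

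**Figure D2:**
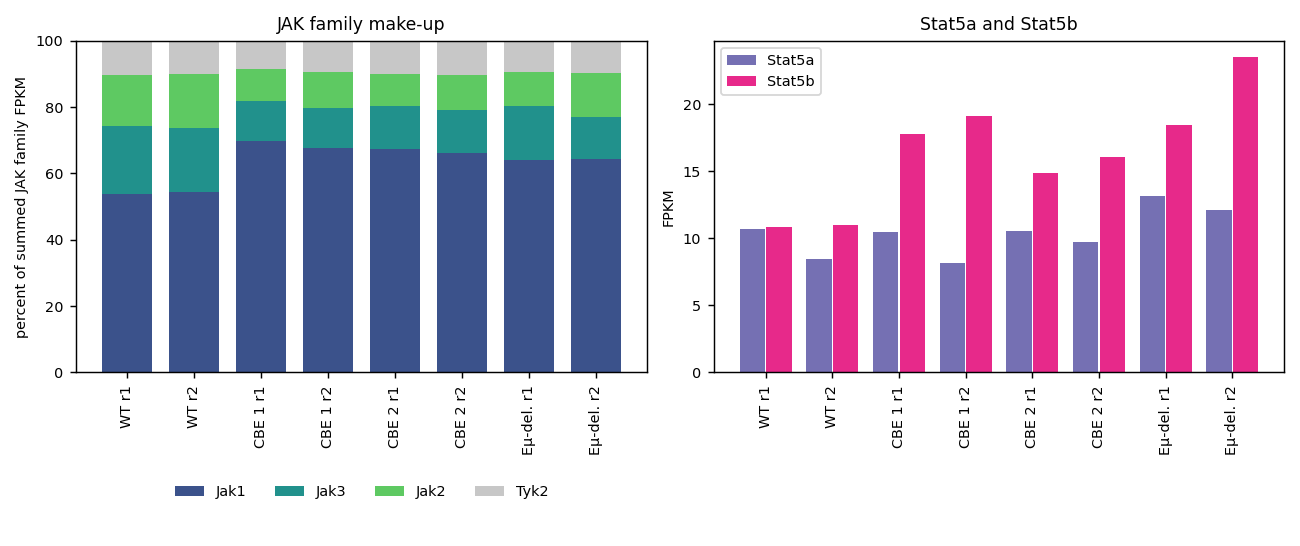
Left, share of each JAK gene in the summed JAK family FPKM of each library (stacked bars, percent, r1 and r2 for replicates 1 and 2). Right, Stat5a and Stat5b FPKM side by side in the same libraries: Jak1 took 53.7% and 54.3% in WT against 64.2% or more in the mutants, and Stat5b exceeded Stat5a in all 8 libraries.

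Stat5b rose in every mutant line. Its FPKM was 10.9 and 11.0 for WT, 17.8 and 19.1 for CBE line 1, 14.9 and 16.1 for CBE line 2, and 18.5 and 23.6 with the Eµ deletion (chr11:100642044-100711899). All 6 mutant libraries lay above WT, with CBE line 2 the closest to it. The log2 difference was 0.58 (limma adjusted p = 0.0109, SE 0.11) in the CBE lines, 0.70 (adjusted p = 0.0106) in line 1, 0.46 (adjusted p = 0.0489) in line 2, and 0.88 (adjusted p = 0.00430, SE 0.13) in the Eµ-deleted line, a 1.83-fold difference. The Eµ difference was called in all 8 fits that left out a library (0.71 to 1.04, adjusted p up to 0.0430) and under all 10 other settings tried. It was the only one of the 13 calls among the 60 values (10 genes in 6 comparisons) of which this held. The CBE calls were lost without WT replicate 1 or WT replicate 2 (adjusted p up to 0.0961 for both lines and 0.0800 for line 1). The line 2 call was lost in 6 of the 8 fits, all but those without an Eµ-deleted library (up to 0.267).

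Stat5a, the neighbouring gene on chromosome 11 (chr11:100720664-100746483) and a near-identical paralog, was measured at 10.7 and 8.46 FPKM for WT, 10.5 and 8.17 for CBE line 1, 10.6 and 9.77 for CBE line 2, and 13.1 and 12.1 with the Eµ deletion. WT and both CBE lines overlapped, and both Eµ-deleted libraries lay above all the others. The difference from WT was 0.02 (limma adjusted p = 0.926, SE 0.13, interval -0.29 to 0.34) in the CBE lines and 0.37 (adjusted p = 0.136, SE 0.15) in the Eµ-deleted line, where the replicate block gave a call (adjusted p = 0.0284). The ratio of Stat5b to Stat5a FPKM was 1.01 and 1.30 for WT, 1.69 and 2.34 for CBE line 1, 1.40 and 1.65 for CBE line 2, and 1.41 and 1.95 with the Eµ deletion. All mutant ratios exceeded both WT ratios, and replicate 2 had the higher ratio in every line. The summed FPKM of both genes was 21.6 and 19.4 in WT and ranged from 25.4 to 35.7 in the mutants. The sources used here do not say how reads shared by these paralogs were divided, so the split between them is less certain than their sum.

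Cish, whose promoter window held the motif pair, encodes an inhibitor that STAT5 itself induces. Its FPKM was 18.2 and 9.59 for WT, 24.4 and 57.9 for CBE line 1, 22.0 and 28.5 for CBE line 2, and 42.1 and 59.0 with the Eµ deletion (chr9:107199019-107204292). Each of the 6 mutant libraries exceeded both WT libraries, but the WT and CBE line 1 libraries each differed strongly between themselves. Cish rose by 1.83 (limma adjusted p = 0.0300, SE 0.45) in the Eµ-deleted line, a 3.56-fold difference. In the CBE lines the difference was 1.15 (adjusted p = 0.0800, SE 0.39) and was not called, with 1.44 (adjusted p = 0.0693) in line 1 and 0.87 (adjusted p = 0.240) in line 2. The Eµ call was lost without either WT library, either CBE line 2 library or Eµ-deleted replicate 2 (adjusted p up to 0.169), and with no filter on low values (0.0629). Without CBE line 1 replicate 1, Cish was called in both lines together (adjusted p = 0.0251) and in line 1 (0.0275).

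Pim1 was the most abundant of the 10 genes on average in every line, at 113 and 137 FPKM for WT, 160 and 261 for CBE line 1, 125 and 180 for CBE line 2, and 220 and 316 with the Eµ deletion (chr17:29627989-29632404). The Eµ-deleted and CBE line 1 libraries lay above WT, while CBE line 2 overlapped it. Pim1 rose by 1.08 (limma adjusted p = 0.0463, SE 0.30) in the Eµ-deleted line, a 2.11-fold difference. It differed by 0.49 (adjusted p = 0.235, SE 0.26) in the CBE lines and by 0.71 (adjusted p = 0.157) in line 1. Replicate 2 was the higher library in all 4 lines, and with the replicate number as a block both of these CBE differences were called (adjusted p = 0.0109 and 0.00524). The Eµ call had an adjusted p of 0.00105 with the block. Without the block it was lost when either WT library, either CBE line 2 library or Eµ-deleted replicate 2 was left out (up to 0.223).

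Socs2 (chr10:94874123-94879491) was as abundant as Pim1 in WT, at 122 and 127 FPKM, with 78.7 and 107 for CBE line 1, 139 and 145 for CBE line 2, and 127 and 156 with the Eµ deletion. CBE line 1 lay below WT and CBE line 2 above it. The differences from WT were -0.44 (limma adjusted p = 0.120, SE 0.17) in line 1, 0.19 (adjusted p = 0.485, SE 0.17) in line 2, and 0.17 (adjusted p = 0.489, SE 0.17) in the Eµ-deleted line. None of these was called, although line 1 was called with the replicate block (adjusted p = 0.0330) and without CBE line 1 replicate 2 (0.0390). The mean over both CBE lines, -0.12 (adjusted p = 0.604), averages lines that lay on opposite sides of WT.

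**Figure D3:**
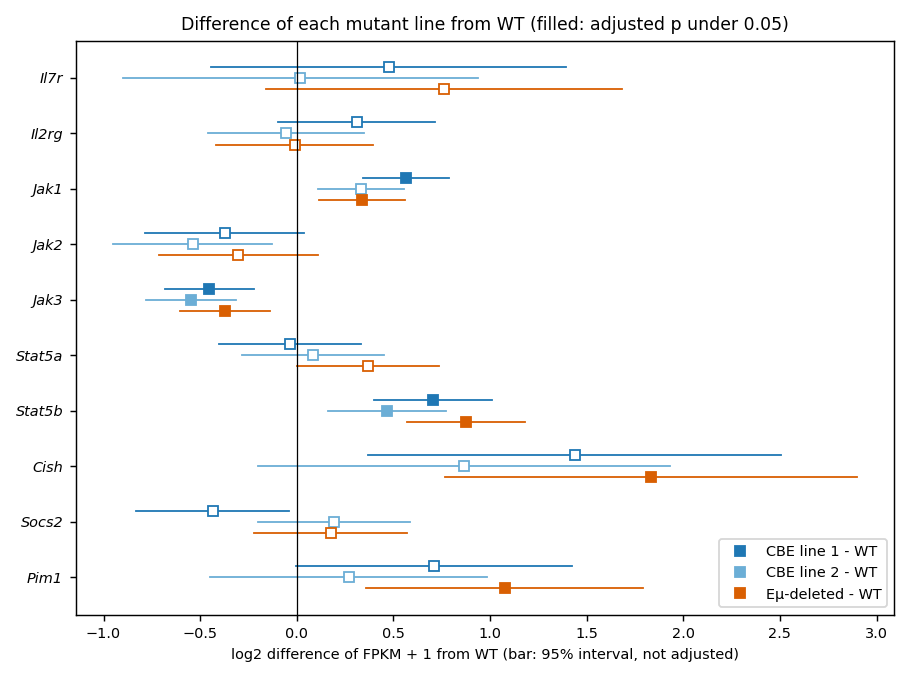
Log2 difference of each gene from WT in each mutant line (squares, filled where the adjusted p is under 0.05), with unadjusted 95% intervals as bars. Stat5b, Jak1, Cish, Pim1 and Il7r lie right of 0 and Jak2 and Jak3 left of 0 in all 3 lines. Of these genes, the Il7r intervals all span 0, and so do some of those of Cish, Pim1 and Jak2.

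CBE line 1 against WT had 3 of the 10 genes called (Jak1 and Stat5b higher, Jak3 lower) beside 19.4% of all genes (10.9% higher and 8.54% lower). CBE line 2 against WT had 2 (Stat5b higher, Jak3 lower) beside 18.7% (10.5% higher and 8.19% lower). In the CBE line 2 comparison, quantile normalization moved the split of all called genes from 1102 higher and 858 lower to 1014 higher and 1198 lower. With the replicate number as a block, 5 genes were called for the mean of the CBE lines, 5 for line 1, 4 for line 2 and 6 for the Eµ-deleted line, and the shares of all genes called rose with them, to 33.0%, 30.0%, 28.8% and 34.0%. The genes whose 6 mutant libraries did not overlap the 2 WT libraries were Jak1, Stat5b and Cish above and Jak2 and Jak3 below, 5 of 10, and the share over all genes tested was 32.1% (18.2% above and 14% below). This count was added after the values had been seen. Settings other than the leave-outs also ended some calls. In CBE line 2, Stat5b was lost with a pseudocount of 5, no filter, a mean of 5 FPKM or more, or TPM scaling (adjusted p up to 0.0618), and in CBE line 1, Jak3 was lost in a fit on only the libraries compared (0.0501). In the Eµ-deleted line that fit ended the calls of Jak1, Jak3 and Pim1 (0.0581 to 0.133), quantile normalization or a mean of 5 FPKM or more those of Jak1 and Pim1 (0.0521 to 0.0627 and 0.0528 to 0.0608), and no filter those of Cish and Pim1 (0.0629 to 0.0860). TPM scaling there ended the Jak3 call (0.0648), and a fit without the mean-variance trend the Jak1 call (0.0509).

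Between the CBE lines, none of the 10 genes was called with limma, whereas 10.2% of all genes were (5.17% higher and 5.03% lower). At an unadjusted p under 0.05, 2 of the 10 passed (Jak1 and Socs2), beside 23.3% of all genes. Socs2 had the widest separation, with 78.7 and 107 FPKM in line 1 and 139 and 145 in line 2, a difference of 0.63 (adjusted p = 0.0629, SE 0.17). It was called with the replicate block (adjusted p = 0.0152) and without CBE line 1 replicate 2 (0.0317) or either Eµ-deleted library. The block also called Pim1, which was lower in line 2 by -0.44 (adjusted p = 0.0432, or 0.456 without the block). Jak1 differed by -0.23 (SE 0.09, interval -0.45 to -0.01, adjusted p = 0.202).

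Between the Eµ-deleted line and the mean of the CBE lines, none of the 10 was called with limma either, beside 12.4% of all genes (5.16% higher and 7.25% lower). At an unadjusted p under 0.05, 2 passed (Stat5a and Stat5b), beside 27.9% of all genes. Stat5a differed by 0.35 (adjusted p = 0.153, SE 0.13) and Stat5b by 0.29 (adjusted p = 0.148, SE 0.11). Cish and Pim1, called in the Eµ-deleted line and not in the CBE lines, differed between the mutants by 0.68 (SE 0.39, interval -0.24 to 1.60, adjusted p = 0.307) and 0.59 (SE 0.26, interval -0.03 to 1.21, adjusted p = 0.200). With the replicate block, Pim1 (adjusted p = 0.00914) and Stat5a (0.0317) were called. Without Eµ-deleted replicate 1, Stat5b (0.0257) and Jak2 (0.0432) were called. The Il7r difference was 0.51 (SE 0.33, interval -0.28 to 1.31, adjusted p = 0.365).

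By mean FPKM, Pim1 and Socs2 led in every line, and their libraries overlapped in WT and CBE line 2 and were separate in CBE line 1 and the Eµ-deleted line. Jak1 ranked next in WT and both CBE lines, followed by Il2rg and Il7r. Jak1 and Il2rg overlapped in WT, and Il2rg and Il7r overlapped in both CBE lines. In the Eµ-deleted line, Il7r, Jak1, Cish and Il2rg followed Socs2 in that order, with overlapping libraries between each pair of neighbours. Cish ranked below Jak3 and above Jak2 in WT and overlapped both, whereas in all 3 mutant lines its libraries were separate from those of Stat5b, Stat5a, Jak2 and Jak3 and higher. Stat5a was the lowest in WT and CBE line 1, and Jak2 in CBE line 2 and the Eµ-deleted line.

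The libraries of one line differed for several of these genes, and the replicate number marked the direction. This comparison was added after the values had been seen. Pim1 was higher in replicate 2 in 4 of 4 lines, by 0.50 (SE 0.08) on the log2 scale, as were Il2rg by 0.25 (SE 0.07) and Socs2 by 0.21. Jak2 and Stat5b were also higher in replicate 2 in 4 of 4 lines, by 0.21 and 0.14. Stat5a was lower in replicate 2 in 4 of 4 lines, by -0.21, as was Jak3, by -0.08. Il7r was lower in replicate 2 in 3 of 4 lines, with differences of -0.41 for WT, -1.19 for CBE line 1, -0.54 for CBE line 2 and 0.04 with the Eµ deletion. Cish differed by -0.86 in WT and by 1.21, 0.36 and 0.48 in the mutant lines. With limma, none of the 10 passed an adjusted p of 0.05, and neither did any gene tested (0%), the smallest adjusted p over all genes being 0.0765. At an unadjusted p under 0.05, 5 of the 10 passed (Il2rg, Il7r, Pim1, Socs2 and Stat5a), beside 31.2% of all genes.

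**Figure D4:**
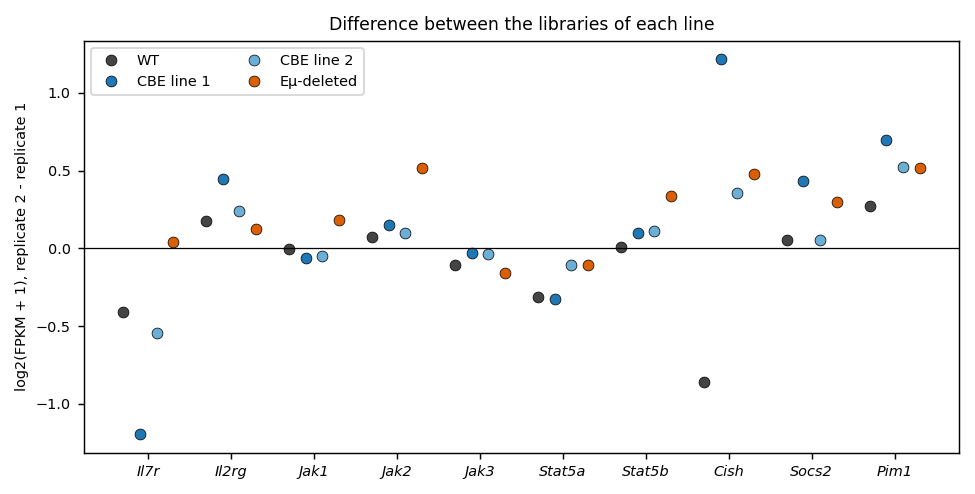
Difference between replicate 2 and replicate 1 of each line in log2(FPKM + 1), 1 point per line and gene. Pim1, Il2rg, Socs2, Jak2 and Stat5b lie above 0 and Stat5a and Jak3 below 0 in all 4 lines, while Jak1 and Jak3 stay close to 0 and Il7r and Cish of CBE line 1 lie farthest from it, at -1.19 and 1.21.

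Upstream of the receptor, 0 of 7 cytokine genes were high enough to be tested. Il7 itself was listed at 0.742 and 0.808 FPKM in WT and at 0.163 or less in each mutant library, and Il2, Il4, Il9 and Il21 were listed at 0 in all 8 libraries. Of 16 other receptor genes that share a chain with the IL-7 receptor or signal to STAT5, 10 were tested. In the CBE lines 5 were called higher and 0 lower, or 4 without Ghr, which reached 1 FPKM in CBE line 2 only. In the Eµ-deleted line 2 rose and 0 fell. The shares of all genes called were 12.5% higher and 9.78% lower in the CBE lines, and 11.3% and 10.4% in the Eµ-deleted line. Il2ra, the IL-2 receptor alpha chain and itself a known STAT5 target, was measured at 4.71 and 3.50 FPKM for WT, 15.9 and 23.7 for CBE line 1, 13.7 and 14.0 for CBE line 2, and 11.7 and 16.6 with the Eµ deletion. It rose by 1.78 (limma adjusted p = 0.00118, SE 0.20) in the CBE lines and by 1.56 (adjusted p = 0.00480, SE 0.23) in the Eµ-deleted line, and was called in both under all 8 leave-outs and all 10 other settings. Il2rb, the chain with which Il2ra and Il2rg form the full IL-2 receptor, was at 0.007 FPKM or less.

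Csf2rb and Csf2rb2, beta chain genes of the IL-3 family of receptors, were highest in CBE line 1. Csf2rb was measured at 17.3 and 10.9 FPKM for WT, 30.8 and 36.8 for CBE line 1, 18.0 and 15.4 for CBE line 2, and 21.0 and 27.7 with the Eµ deletion. As near-identical neighbours, they may share reads. They rose by 0.74 and 0.95 in the CBE lines (limma adjusted p = 0.0412 and 0.0227) and were lower in line 2 than in line 1 by -0.97 and -1.58 (adjusted p = 0.0463 and 0.0107). In the first comparison, Csf2rb lost its call without WT replicate 2 or any of the 4 CBE libraries (adjusted p up to 0.288) and with no filter (0.0701), and Csf2rb2 without replicate 2 of WT, replicate 2 of CBE line 1 or replicate 1 of CBE line 2 (up to 0.145). In the second, Csf2rb lost it without any of the 4 CBE libraries (up to 0.273) and with no filter, a mean of 5 FPKM or more or TPM scaling (up to 0.0818), and Csf2rb2 without 3 of them, all but CBE line 1 replicate 1 (up to 0.0995). Ghr, the growth hormone receptor, reached 3.01 and 3.79 FPKM in CBE line 2 and 0.312 or less in every other library. Its difference of 0.95 in the mean of the CBE lines is thus a description and came with line 1 at the WT level. Without either line 2 library it was not tested. Crlf2, which pairs with the IL-7 receptor alpha chain to bind TSLP, rose by 0.59 in the Eµ-deleted line (adjusted p = 0.0441), from 13.3 and 15.1 to 20.9 and 22.8 FPKM, and lost that call without any 1 of the WT, CBE line 2 and Eµ-deleted libraries (up to 0.228), and with no filter or only the libraries compared (up to 0.0694). Il4ra differed by 0.32 in the CBE lines and 0.22 in the Eµ-deleted line (adjusted p = 0.301 and 0.532).

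Among 6 other JAK and STAT genes, Stat4 was the only one called in the CBE lines (0.78, limma adjusted p = 0.00981) and in the Eµ-deleted line (0.72, adjusted p = 0.0249). The first call was lost without WT replicate 2 (adjusted p of 0.109). The second was lost without either WT library, either CBE line 2 library or Eµ-deleted replicate 2 (up to 0.158), and with only the libraries compared (0.109). Stat3 differed by -0.08 in both (adjusted p = 0.777 and 0.819). Of 18 genes that restrain the pathway, 17 were tested. Among them, 1 rose and 0 fell in the CBE lines, beside 12.5% and 9.78% of all genes. With the Eµ deletion 2 rose and 1 fell, beside 11.3% and 10.4%. Cblb, a ubiquitin ligase, rose in both, by 0.98 and 1.02 (adjusted p = 0.00422 and 0.00764), and lost both calls without WT replicate 2 (adjusted p of 0.0564 and 0.0677). The feedback inhibitor Socs1 was measured at 21.8 and 28.4 FPKM for WT, 9.79 and 47.0 for CBE line 1, 16.9 and 24.1 for CBE line 2, and 19.3 and 58.6 with the Eµ deletion. As for Pim1, replicate 2 was the higher library in every line, and the differences from WT, -0.24 and 0.43, were not called (adjusted p = 0.840 and 0.730). Socs3 (0.46 and 0.52) was not called, nor was the phosphatase Ptpn6 (-0.04 and -0.78, adjusted p = 0.927 and 0.0802).

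Of 14 further genes known as STAT5 targets in lymphoid cells, Il2ra, Socs1 and Socs3 among them, 12 were tested. In the CBE lines 3 rose and 1 fell, beside 12.5% and 9.78% of all genes. With the Eµ deletion 2 rose and 0 fell, beside 11.3% and 10.4%. The survival genes of the BCL2 family went in different directions. Bcl2l1, which encodes BCL-XL, was measured at 25.9 and 22.1 FPKM for WT, 47.7 and 56.6 for CBE line 1, 34.1 and 28.9 for CBE line 2, and 39.1 and 48.8 with the Eµ deletion. It rose by 0.73 in the CBE lines (limma adjusted p = 0.0106) and by 0.84 in the Eµ-deleted line (adjusted p = 0.0124). Without WT replicate 2 both calls were lost, and the Eµ call also without Eµ-deleted replicate 2 (up to 0.118 and 0.0989).

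Bcl2 was at 14.0 and 16.8 FPKM for WT, 4.27 and 7.25 for CBE line 1, 6.37 and 8.67 for CBE line 2, and 7.33 and 10.3 with the Eµ deletion. All mutant libraries lay below WT, and Bcl2 fell by 1.13 in the CBE lines (limma adjusted p = 0.0137), a call that was lost without WT replicate 1 or 2 (up to 0.128). The Eµ difference of -0.76 was not called (adjusted p = 0.0867). Pim2, the relative of Pim1, was at 21.6 and 27.3 FPKM for WT, 53.5 and 135 for CBE line 1, 66.7 and 92.3 for CBE line 2, and 31.2 and 80.6 with the Eµ deletion. It rose by 1.71 in the CBE lines (adjusted p = 0.0435), a call lost without either WT library, either CBE line 2 library or CBE line 1 replicate 2 (up to 0.227), and with no filter, a mean of 5 FPKM or more or quantile normalization (up to 0.0809). Mcl1, Myc, Ccnd2 and Ccnd3 were not called in either comparison, with differences between -0.15 and 0.28.

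**Figure D5:**
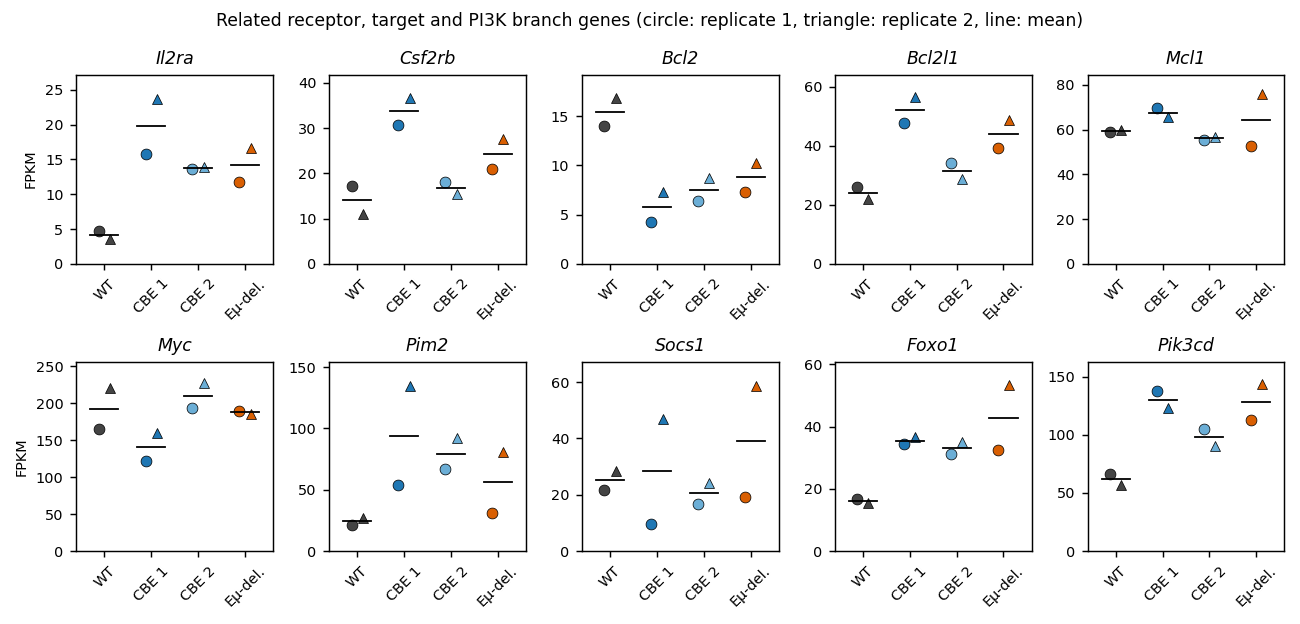
FPKM of 10 related genes in every library (circle, replicate 1; triangle, replicate 2; line, mean of the 2 libraries). Il2ra, Bcl2l1, Pim2, Foxo1 and Pik3cd lie higher and Bcl2 lower in all mutant libraries than in WT, while Mcl1, Myc and Socs1 overlap WT. The plotted genes were chosen with earlier results known. Over all genes tested, 32.1% did not overlap in this way (18.2% higher and 14% lower).

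In the PI3K branch of IL-7 signalling, 18 of 19 genes were tested. In the CBE lines 5 were called higher and 0 lower, beside 12.5% and 9.78% of all genes. With the Eµ deletion it was 4 and 0, beside 11.3% and 10.4%. Irs1 and Irs2, counted in both, reached 1 FPKM in mutant libraries only, and without them 3 rose in the CBE lines and 2 in the Eµ-deleted line. Foxo1, a transcription factor that AKT keeps out of the nucleus and that acts at Il7r and the Rag genes, was measured at 16.9 and 15.3 FPKM for WT, 34.3 and 36.5 for CBE line 1, 31.3 and 35.1 for CBE line 2, and 32.3 and 53.3 with the Eµ deletion. It rose by 1.05 (limma adjusted p = 0.00872, SE 0.19) in the CBE lines and by 1.32 (adjusted p = 0.00711, SE 0.22) in the Eµ-deleted line. The first call was lost without WT replicate 1 or 2 (up to 0.0895) and the second without WT replicate 2 (0.0608) or with only the libraries compared (0.0544). The adaptor gene Irs2 was at 0.984 and 0.995 FPKM in WT and between 2.28 and 4.50 in the mutants. Its differences of 1.23 and 1.09 are a description, since it passed the filter through mutant libraries only. Pik3cd, the lymphoid catalytic subunit of PI3K, was at 66.5 and 56.7 FPKM in WT and 90.3 to 144 in the mutants, and rose by 0.86 and 1.04 (adjusted p = 0.00473 and 0.00480, or 0.0652 and 0.0502 without WT replicate 2).

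Of 10 genes known to rise when B cell progenitors lose IL-7 signals, all 10 were tested. In the CBE lines 3 were called higher and 0 lower, beside 12.5% and 9.78% of all genes, and in the Eµ-deleted line 4 and 0, beside 11.3% and 10.4%. Those called in both were Rag1 and Rag2, the recombinase genes, and Ikzf3, which encodes Aiolos. Rag1 was at 0.043 and 0.029 FPKM in WT and at 3.77 to 13.8 in the mutants, and Rag2 at 0.021 and 0.005 in WT and at 1.93 to 5.38 in the mutants. Both passed the filter through mutant libraries only, so their calls are a description, and without them 1 gene of 8 rose in the CBE lines and 2 in the Eµ-deleted line. Ikzf3 rose by 0.99 and 1.07 (limma adjusted p = 4.7e-04 and 8.2e-04). It remained called in both comparisons under all 8 leave-outs. In CBE line 1 taken singly, 3 of the 10 were called higher and 1 lower, beside 10.9% and 8.54% of all genes. The lower gene was Irf4, at -0.62 (limma adjusted p = 0.0391, kept in 3 of 8 leave-outs and 7 of 10 other settings). Of 7 transcription factors known to act at the Il7r gene, Foxo1 included, 3 were called higher in the CBE lines (beside 12.5% of all genes) and 4 in the Eµ-deleted line (beside 11.3%), and 0 lower in either. One of these, Gfi1, passed the filter through mutant libraries only, and without it 2 and 3 of 6 rose. Gfi1, known as a repressor of Il7r, was at 0.401 and 0.481 FPKM for WT, 2.96 and 3.08 for CBE line 1, 1.25 and 1.43 for CBE line 2, and 5.90 and 8.12 with the Eµ deletion. Its differences of 1.09 and 2.46 are a description, as for the Rag genes. Il7r itself was called in neither comparison.

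Pearson r was taken across the 8 libraries, which share 4 lines and so are not 8 independent points. Of all pairs of genes of the axis, those among Stat5b, Cish and Pim1 had the highest values. They were 0.90 between Stat5b and Cish, 0.89 between Stat5b and Pim1 and 0.87 between Cish and Pim1. Stat5b had an r of 0.81 with the kinase gene Jak1 and of 0.02 with the target gene Socs2. Stat5b and Pim1 were also both higher in replicate 2 in every line. The lowest value of all these pairs was -0.82, between Jak1 and Jak3. How often pairs of other genes reach such values was not tested. Genes of like pattern were sought among named genes with a mean of 5 FPKM or more. Their log2 range had a lower bound set by the range of the gene compared, and no upper bound. The genes whose log2 values were most like those of Il7r, among 3141 compared, were Dlx1 (r = 0.987), Cxcr4 (0.944) and Akap12 (0.938). For Cish they were Tle3, Kirrel and Pcdh9 (r of 0.936 to 0.953, 827 genes compared), for Pim1 Pde8a, Pcdh9 and Lyl1 (0.973 to 0.975, 2589 genes), and for Socs2 Ube2j2, Csk and Znrd1 (0.948 to 0.976, 4793 genes). Cxcr4, a chemokine receptor gene, was high with Il7r in CBE line 1 replicate 1 (96.7 FPKM) and in both Eµ-deleted libraries (88.9 and 89.2), and was at 55.4 in CBE line 1 replicate 2.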

How the data were processed

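RNA of 8 libraries, 2 from each of 4 pro-B cell lines, was prepared with a stranded mRNA kit and sequenced as single reads of 75 bp, per the labels' protocols. The authors deposited 1 FPKM value per gene together with its interval and status, as the file headers show. TopHat, Cufflinks and the mm9 build are named in the submitters' processing notes. The sources used here give no versions or settings and do not say how strands were counted.

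FPKM of a symbol with several entries were summed (277 symbols, none of the 10 genes), and 21 symbols whose status was not OK in some library were dropped (none of the 10). A gene was tested if 2 or more libraries reached 1 FPKM. The test was limma 3.58.1 (R 4.3.3) on log2(FPKM + 1) with a mean-variance trend. It had 4 residual degrees of freedom and 2.65 prior ones, and p-values were Benjamini-Hochberg adjusted over 10479 genes, with 0.05 as the threshold. The pipeline was tested on simulated data. Implied reads were derived from each interval, taken as 2 SD of counting error on each side, which does not hold for genes such as Jak1. The genes and lists were chosen with earlier results of these data known. Beside the 10 genes, those named were up to 3 called genes with the largest difference in each list and comparison, a fixed set of pathway genes (not all are reported here), and the 3 most correlated genes of Il7r, Cish, Socs2 and Pim1. Rag1 and Rag2 belong to the first kind. The lists overlap, Foxo1, Il2ra, Socs1 and Socs3 standing in 2 each.

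Same-numbered libraries deviated together in all 6 pairs of lines (r of replicate deviations across genes from 0.279 to 0.502). The numbers were therefore taken to pair the libraries. The main fit held line only and left this pairing out. Its calls, SE and intervals thus ignore the pairing, and a gene not called there may be called with the block. Values with the replicate number as a block are given where they change a call. As alternatives, the pseudocount was set to 0.1 or 5, the filter was removed or raised to a mean of 5 FPKM, and values were scaled by TPM, median-of-ratios or quantiles. Fits were also run with no trend, on only the libraries compared, with the block, and with each library left out. A line left with 1 library was assumed to vary like the others.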

Additional observations from a re-analysis of the deposited data

How the results depend on the processing

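The number of the 10 genes called in each comparison depended on the processing. With the replicate block it rose from 3 to 5 in the CBE lines together, from 3 to 5 in CBE line 1, from 2 to 4 in CBE line 2, from 0 to 2 between the CBE lines and from 0 to 2 between the Eµ-deleted line and the CBE lines, while the share of all genes called rose from 22.3% to 33.0%, 19.4% to 30.0%, 18.7% to 28.8%, 10.2% to 16.6% and 12.4% to 22.2%, and the block changed no call beyond those given beside the results. In CBE line 2, a pseudocount of 5 or a mean of 5 FPKM or more left 1 gene, and a fit on only the libraries compared gave 4. Of all genes, 1911 of 10479, 1023 of 7879 and 3527 of 10479 were called there, in that order. Before these changes it was 1960 of 10479. In the Eµ-deleted line, no filter, a mean of 5 FPKM or more and quantile normalization each left 3, and only the libraries compared left 2. The calls among all genes, in that order, were 2758 of 16290, 1304 of 7879, 2422 of 10479 and 1255 of 10479. Before these changes they were 2284 of 10479. Leaving out 1 library gave 0 to 4 genes in the CBE lines together, 0 to 4 in line 1, 0 to 4 in line 2, 1 to 5 in the Eµ-deleted line, 0 to 1 between the CBE lines and 0 to 2 between the Eµ-deleted line and the CBE lines. In the same order, the shares of all genes called ranged from 8.69% to 27.8%, 7.55% to 25.0%, 8.07% to 24.2%, 7.55% to 31.3%, 2.5% to 13.2% and 5.88% to 21.8%. The cause was not tested. The sign of some uncalled differences near 0 changed: Stat5a in the CBE lines with quantile normalization (-0.019) and in line 1 with TPM scaling (0.019), Il7r in line 2 with median-of-ratios scaling (-0.012) and quantile normalization (-0.014), and Il2rg in the Eµ-deleted line with TPM scaling (0.071). In leave-outs, differences from WT ranged from -0.13 to 0.18 (Stat5a) and -0.052 to 0.55 (Il7r) in the CBE lines, -0.20 to 0.13 (Stat5a) and -0.12 to 1.07 (Il7r) in line 1, -0.25 to 0.29 (Il7r), -0.18 to 0.065 (Il2rg) and -0.072 to 0.24 (Stat5a) in line 2, and -0.10 to 0.075 (Il2rg) in the Eµ-deleted line. Between the CBE lines they ranged from -1.05 to 0.14 (Il7r), -0.042 to 0.28 (Stat5a) and -1.18 to 0.036 (Cish), and between the Eµ-deleted line and the CBE lines from -0.11 to 0.41 (Jak2). The half-width of the interval was at most 6.10% of a value of these genes, and each line had 2 libraries.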
